A study of Mus musculus with 6 samples.

Results

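The genes described here encode collagens, laminins and their partners in the extracellular matrix, the protein scaffold that cells secrete. They were taken from the gene names of the deposited table as every collagen chain (Col, number, a, number) and laminin chain (Lama, Lamb or Lamc with a number), plus Fn1, Sparc, Nid1, Nid2, Hspg2 and Agrn. This gave 60 of the 36699 rows, none of which joined several genes. Of these, 23 belong to the basement membrane, 11 are fibrillar collagens, 24 are other collagens and 2 are matrix glycoproteins. The classes were assigned from textbook knowledge.

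RNA of day 3 embryoid bodies, floating aggregates of differentiating mouse embryonic stem cells, was captured on oligo-dT beads and sequenced. All cells were A2Lox.cre embryonic stem cells, a line made for single-copy insertion of an inducible transgene, and all carried a Flag-tagged Lef1 transgene under doxycycline control. The plus_Dox group (3 libraries, numbered 1, 2 and 3) received doxycycline for the last 24 h to switch the transgene on, and the minus_Dox group (3 libraries, numbered 1, 3 and 4) received none. Lef1 is a transcription factor through which beta-catenin acts on Wnt target genes, and the comparison asked which genes respond to it. No library had doxycycline without the transgene, so effects of the drug and of Lef1 cannot be told apart. The labels do not say whether libraries came from separate cultures, so the spread between them may be technical.

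For each gene the table gives 1 level per group in FPKM. FPKM counts sequenced fragments scaled by transcript size and by how deeply a library was sequenced. The authors took the 3 libraries of a group together for it, so values of single libraries and overlap between groups are not shown here and sequencing depth is unknown. The call rule is the q-value of the authors' own test at or below 0.05. The standard error (SE) and 95% interval of a fold were derived from the size of the authors' statistic. Lef1 itself stood at 51.0 FPKM in plus_Dox and 7.56 FPKM in minus_Dox in the authors' deposited table, a 6.75-fold rise (q listed as 0).

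A basement membrane is the thin sheet on which epithelia rest. Laminin trimers of an alpha, a beta and a gamma chain assemble into a first network, type IV collagen forms a second, and nidogens, perlecan (Hspg2) and agrin (Agrn) link them. Fibrillar collagens instead bundle into the rope-like fibres of connective tissue. In the early mouse embryo basement membranes are laid down between the epiblast and the extraembryonic endoderm, and endoderm cells are known as strong producers of laminin, type IV collagen and Sparc.

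Most of this matrix did not pass the test. Of 46 tested members, 3 rose in plus_Dox, the laminin chain gene Lama5, the fibrillar collagen gene Col27a1 and the transmembrane collagen gene Col23a1. None fell by the authors' Cuffdiff test, and 43 did not pass. The members' share was 6.52%, against 12.2% of all 18114 tested genes (8.98% higher and 3.22% lower). At an unadjusted p under 0.05 there were 9 members higher (19.6%) and 1 lower (2.17%), against 17.2% and 6.14% of all tested genes, so the share higher was near the background. The other 14 members had no test: 12 were marked as not tested, all with under 0.1 FPKM in both groups, and 2, Fn1 and Col7a1, as failed.

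**Figure D1:**
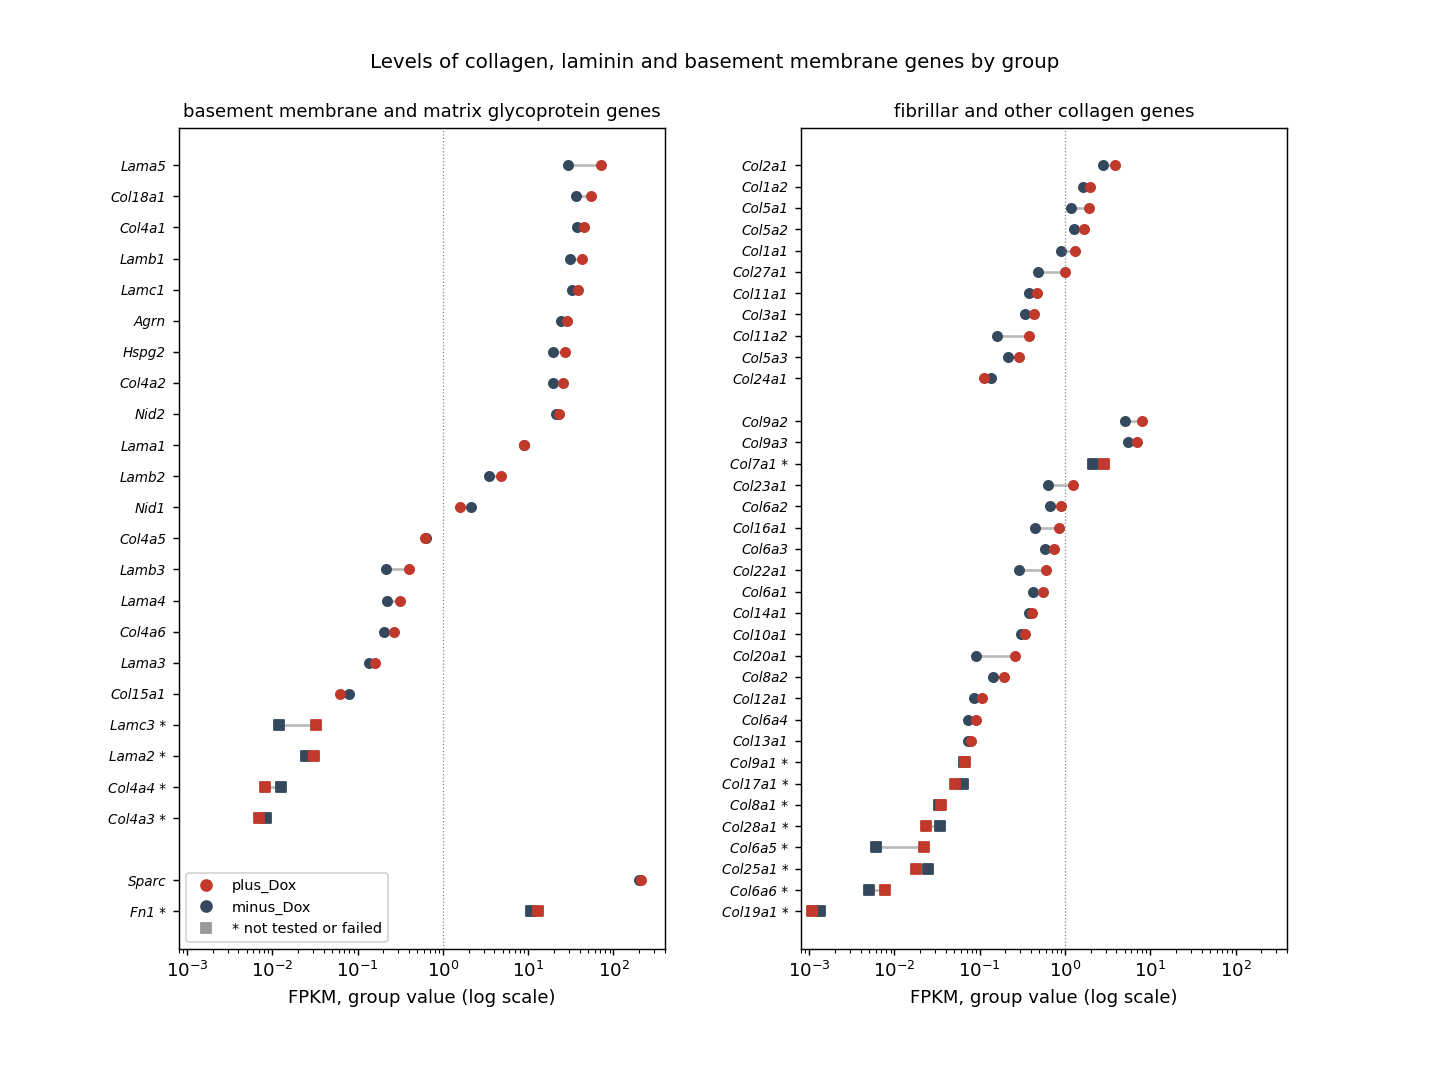
Group values of 59 members in FPKM on a log axis, with plus_Dox in red and minus_Dox in dark blue, ordered by level within each class. Each point is 1 value computed by the authors over 3 libraries, with no error available, squares mark members without a test, and the dotted line marks 1 FPKM. Basement membrane genes and Sparc reach the right of the scale, whereas no fibrillar collagen exceeds 3.83 FPKM.

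Basement membrane genes were the abundant class. Of its 23 genes, 9 reached 10 FPKM in the higher group of the authors' deposited table, and none of the 11 fibrillar collagens did. Summed over the class, basement membrane genes stood at 375 FPKM in plus_Dox and 267 FPKM in minus_Dox, and fibrillar genes at 13.4 and 9.45 FPKM in the same groups. The sums therefore differ between classes by far more than between groups. The ratio of plus_Dox to minus_Dox was 1.40 for the basement membrane sum and 1.41 for the fibrillar sum. For the sum over all tested genes it was 1.92. A sum is weighted to its highest genes, so 1.92 is not the rise of a typical gene. The median log2 fold was 0.20 over all tested genes, below that of basement membrane (0.38) and fibrillar (0.43) genes. Lama5 alone gave 72.2 FPKM of the basement membrane sum in plus_Dox and 29.2 FPKM in minus_Dox. In bulk RNA a change in the number of cells of a type and a change in RNA per cell cannot be told apart.

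Laminin genes included the class's single call. Lama5, an alpha chain of epithelial basement membranes, stood at 72.2 FPKM in plus_Dox and 29.2 FPKM in minus_Dox in the authors' deposited table. The rise was 2.48-fold, and its 95% interval ran from 1.34 to 4.59 (log2 fold of 1.31 with SE 0.45, q = 0.0363). Its row spans bases 179911077 to 179960564 of chromosome 2. Gene positions are in mm9, which the submitters' processing notes name. The call was lost when the median shift of all genes (0.20 in log2) was subtracted (log2 fold 1.11, q = 0.109) and when a trend on transcript GC content and length was removed (1.04, q = 0.364).

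The chains that assemble with Lama5 did not pass. The beta chain gene Lamb1 was listed at 43.0 FPKM in plus_Dox and 31.0 FPKM in minus_Dox (log2 fold of 0.47 with SE 0.40, q = 0.561) in the authors' deposited table. Lamc1, the gamma chain gene, stood at 38.0 and 32.9 FPKM in the same groups of that authors' deposited table (log2 fold of 0.21 with SE 0.32, q = 0.826). The 3 genes thus sat close together in minus_Dox and apart in plus_Dox. Lama5 divided by Lamc1 was 1.90 in plus_Dox and 0.886 in minus_Dox, a ratio of FPKM whose difference was not tested.

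Lama1, the alpha chain of the first embryonic laminin, was nearly level. The authors' deposited table gives 8.97 FPKM in plus_Dox and 8.85 FPKM in minus_Dox (log2 fold of 0.02 with SE 0.16, q = 1.00), with a 95% interval of the fold from 0.815 to 1.26. The ratio of Lama5 to Lama1 was 8.05 in plus_Dox and 3.30 in minus_Dox. Among the lower laminins, Lamb2, the beta chain of muscle and kidney basement membranes, missed the threshold at 4.76 and 3.44 FPKM in plus_Dox and minus_Dox of the authors' deposited table (log2 fold of 0.47 with SE 0.18, q = 0.0645). The chains known from skin were scarce. In the authors' deposited table Lamb3 was at 0.402 FPKM in plus_Dox and 0.218 FPKM in minus_Dox (q = 0.0839), and Lama3 at 0.158 and 0.137 FPKM (q = 0.854). Lama4 of vessel walls was likewise low, at 0.318 and 0.221 FPKM in plus_Dox and minus_Dox of the authors' deposited table (q = 0.865), and Lama2 of muscle and Lamc3 were not tested. All 9 tested laminin genes had folds above 0, with a median log2 fold of 0.47, against 0.20 over all tested genes.

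**Figure D2:**
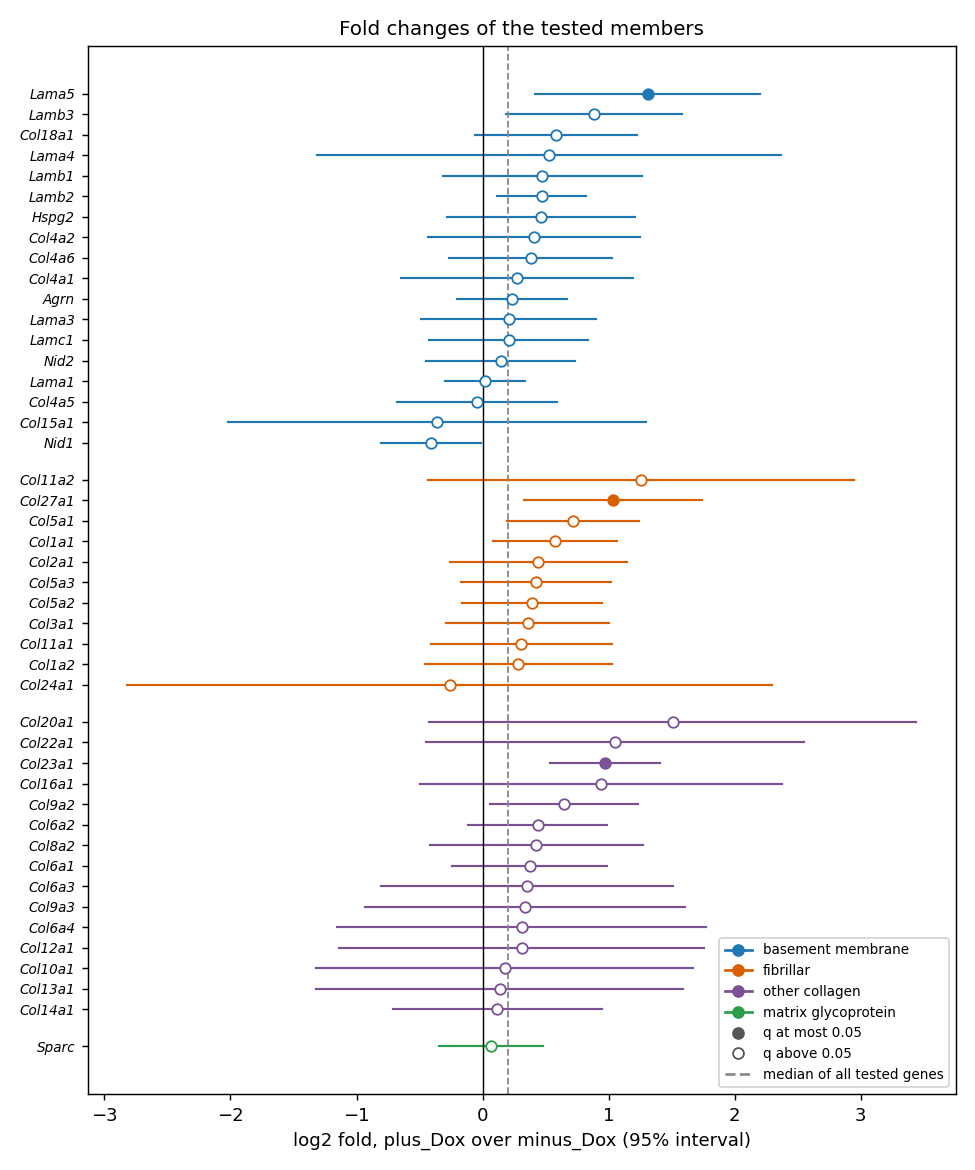
Log2 fold of plus_Dox over minus_Dox for 45 tested members, by class, with the 95% interval implied by the authors' statistic. Filled points have q at most 0.05, open points have not, the solid line marks 0 and the dashed line the median of all tested genes. Lama5, Col27a1 and Col23a1 are the filled points, and 41 of the 45 folds lie above 0.

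Type IV collagen was dominated by its most widespread pair of chains. Col4a1 was listed at 44.7 FPKM in plus_Dox and 36.9 FPKM in minus_Dox in the authors' deposited table (log2 fold of 0.28 with SE 0.47, q = 0.853). Col4a2 stood at 25.7 FPKM in plus_Dox and 19.4 FPKM in minus_Dox of the authors' deposited table (log2 fold of 0.41 with SE 0.43, q = 0.679). Col4a1 divided by Col4a2 was 1.74 in plus_Dox and 1.91 in minus_Dox, so the pair stayed in a similar proportion. The later-stage chains were far below them. In the authors' deposited table Col4a5 was at 0.618 FPKM in plus_Dox and 0.638 FPKM in minus_Dox (q = 1.00) and Col4a6 at 0.266 and 0.204 FPKM (q = 0.571), and Col4a3 and Col4a4 of kidney and lung stayed at or under 0.0127 FPKM without a test.

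Col4a1 and Col4a2 lie head to head on chromosome 8, and their rows in the table share 1 locus, 11187754 to 11449287 in mm9, so reads near their starts are uncertain. In RefSeq (GRCm38.p6) their first bases, 11312826 on the minus strand and 11312805 on the plus strand, leave 22 bases that both transcripts begin with. The window of Col4a2, chr8:11312555-11312854 on the plus strand, is shown because it holds both starts, with those 22 bases in capitals, and it shares 78 bases with the window of Col4a1.
Col4a2: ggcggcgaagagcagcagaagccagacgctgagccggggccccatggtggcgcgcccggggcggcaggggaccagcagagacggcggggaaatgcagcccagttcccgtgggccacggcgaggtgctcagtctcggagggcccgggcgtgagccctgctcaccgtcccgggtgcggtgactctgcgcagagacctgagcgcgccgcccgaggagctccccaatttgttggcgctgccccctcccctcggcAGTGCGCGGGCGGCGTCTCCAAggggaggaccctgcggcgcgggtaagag

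The linker genes were high and did not pass. Hspg2, the perlecan gene, was listed at 26.8 FPKM in plus_Dox and 19.4 FPKM in minus_Dox in the authors' deposited table (log2 fold of 0.46 with SE 0.38, q = 0.537). Agrn stood at 28.9 FPKM in plus_Dox and 24.6 FPKM in minus_Dox of the authors' deposited table (log2 fold of 0.23 with SE 0.22, q = 0.632). Both log2 folds were close to their SE. Col18a1, whose C-terminal fragment is endostatin, had 53.8 FPKM in plus_Dox and 35.9 FPKM in minus_Dox in the authors' deposited table (log2 fold of 0.58 with SE 0.33, q = 0.283). Its row overlaps that of Slc19a1, so reads there are uncertain. Col15a1, its relative in muscle and vessel membranes, was listed at 0.0623 and 0.0800 FPKM in plus_Dox and minus_Dox of the authors' deposited table (q = 0.919).

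Neither nidogen gene, whose products bridge laminin and type IV collagen, passed the test as deposited. Nid1 was the expressed basement membrane gene with a negative fold, at 1.59 FPKM in plus_Dox and 2.11 FPKM in minus_Dox in the authors' deposited table (log2 fold of -0.41 with SE 0.20, q = 0.198). Relative to the median shift of all genes its log2 fold was -0.61 and passed (q = 0.0331), and after trend removal it was -0.42 and did not (q = 0.498). Nid2 stood at 23.1 FPKM in plus_Dox and 21.0 FPKM in minus_Dox of the authors' deposited table (log2 fold of 0.14 with SE 0.30, q = 0.900). Its log2 fold was -0.06 after subtraction of the median shift and -0.08 after trend removal, neither of which passed, and its row overlaps that of 2700060E02Rik. Nid2 divided by Nid1 was 14.5 in plus_Dox and 9.93 in minus_Dox.

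Sparc, a collagen-binding glycoprotein made in large amounts by parietal endoderm, was the highest member at 209 FPKM in plus_Dox and 199 FPKM in minus_Dox in the authors' deposited table. Its log2 fold was 0.07 in the authors' deposited table (SE 0.21, q = 0.956), with a 95% interval of the fold from 0.787 to 1.40. Fn1, the fibronectin gene, was listed at 13.0 FPKM in plus_Dox and 10.8 FPKM in minus_Dox in the authors' deposited table, where its test is marked as failed.

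Fibrillar collagens were present at low levels, and 1 of 11 rose. Col27a1, a cartilage collagen with a shortened helix, had 0.990 FPKM in plus_Dox and 0.483 FPKM in minus_Dox in the authors' deposited table, a 2.05-fold rise whose 95% interval ran from 1.26 to 3.34 (log2 fold of 1.04 with SE 0.36, q = 0.0368). Its row spans bases 62875037 to 62996025 of chromosome 4 (mm9). The call was lost after subtraction of the median shift (log2 fold 0.84, q = 0.136) and after trend removal (0.75, q = 0.489). Since neither group reached 1 FPKM, it also left the count when genes under 1 FPKM were set aside.

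Col5a1, which starts fibril assembly, lay just outside the threshold at 1.92 FPKM in plus_Dox and 1.17 FPKM in minus_Dox of the authors' deposited table (log2 fold of 0.72 with SE 0.27, q = 0.0548). Its partner Col5a2 stood at 1.67 and 1.27 FPKM in plus_Dox and minus_Dox of the authors' deposited table (log2 fold of 0.39 with SE 0.28, q = 0.455). The chains of type I collagen, the main fibre of bone and skin, were both low. Col1a1 had 1.32 FPKM in plus_Dox and 0.888 FPKM in minus_Dox in the authors' deposited table (log2 fold of 0.57 with SE 0.25, q = 0.128). Col1a2 had 1.95 FPKM in plus_Dox and 1.60 FPKM in minus_Dox in the authors' deposited table (log2 fold of 0.28 with SE 0.38, q = 0.781). Col2a1 of cartilage and notochord was the highest fibrillar gene, at 3.83 and 2.82 FPKM in plus_Dox and minus_Dox of the authors' deposited table (log2 fold of 0.44 with SE 0.36, q = 0.528). The other 5, Col3a1, Col5a3, Col11a1, Col11a2 and Col24a1, were under 0.5 FPKM, with q from 0.422 to 0.991 in the authors' deposited table.

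Basement membrane and fibrillar genes had similar folds. The median log2 fold was 0.38 over 19 tested basement membrane genes, 0.43 over 11 fibrillar genes and 0.20 over all tested genes. The share called was 5.26% and 9.09%, or 1 gene in each class. Folds above 0 were seen in 16 of 19 basement membrane genes and 10 of 11 fibrillar genes, against 65.1% of all tested genes. Over the members 42 of 46 folds lay above 0, and 36 did so after subtraction of the median shift and 35 after trend removal. At an unadjusted p under 0.05, 4 basement membrane genes were higher (21.1%) and 1 was lower (5.26%), and 3 fibrillar genes were higher (27.3%) and 0 lower, against 17.2% higher and 6.14% lower of all tested genes. The difference between the classes was not tested.

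Of the other collagens, 15 were tested and 1 rose. Col23a1, a transmembrane collagen, had 1.24 FPKM in plus_Dox and 0.632 FPKM in minus_Dox in the authors' deposited table. It rose 1.96-fold, and the 95% interval was 1.45 to 2.66 (log2 fold of 0.97 with SE 0.22, q = 0.000497), and its row spans bases 51103421 to 51397420 of chromosome 11 (mm9). Of the members called, Col23a1 alone still passed after subtraction of the median shift (log2 fold 0.77, q = 0.00950) and after trend removal (0.76, q = 0.0334). It was also the one call kept at a q-value of 0.01. After subtraction of the median shift 1 member was higher (Col23a1) and 1 lower (Nid1), against 3.47% higher and 6.1% lower of 17830 genes (9.56% in all). After trend removal 1 was higher and 0 lower, against 1.27% and 0.918% of 16658 genes.

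The highest of the other collagens were cartilage type IX chains. Col9a2 was at 7.94 FPKM in plus_Dox and 5.08 FPKM in minus_Dox in the authors' deposited table (log2 fold of 0.64 with SE 0.30, q = 0.159). Col9a3 had 6.95 FPKM in plus_Dox and 5.50 FPKM in minus_Dox of the authors' deposited table (log2 fold of 0.34 with SE 0.65, q = 0.880), in a row that overlaps Tcfl5. Col7a1, which anchors skin to its basement membrane, was at 2.89 and 2.12 FPKM in plus_Dox and minus_Dox of the authors' deposited table without a valid test. Col6a2, a chain of beaded filaments, was at 0.893 and 0.660 FPKM in plus_Dox and minus_Dox of the authors' deposited table (q = 0.375). The largest fold of any tested member, in Col20a1 (0.259 and 0.0911 FPKM in plus_Dox and minus_Dox of the authors' deposited table), did not pass, with an SE of 0.98 in log2 and q = 0.387. Col26a1, which the table lists under its older symbol Emid2 and which the choice of members therefore missed, stood at 0.634 FPKM in plus_Dox and 0.486 FPKM in minus_Dox in the authors' deposited table (q = 0.808).

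The test was less precise for the abundant basement membrane genes than for tested genes of at least 10 FPKM at large. The implied SE had a median of 0.38 in log2 over the 9 basement membrane genes with at least 10 FPKM, and of 0.21 over 6376 such genes. With the smallest statistic that passed, 2.74, such members needed a median of 2.05-fold to pass and genes at large 1.48-fold. The 95% interval of the fold ran from 0.640 to 2.29 for Col4a1, from 0.804 to 2.40 for Lamb1 and from 0.746 to 1.78 for Lamc1. Col4a1 would have needed a log2 fold of 1.29 to pass, about that of Lama5, and a missed threshold does not show equal levels.

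Members were longer and richer in GC than most genes. Over the tested members the median transcript length was 6047 nt, against 2653 nt over all tested genes, and the median GC content was 55.7%, against 50.3%. Across 11596 tested genes with at least 1 FPKM the log2 fold correlated with GC content (Spearman's coefficient 0.65) and length (-0.47). Across the 46 members the coefficients were 0.49 for GC content and -0.02 for length. Genes are not independent replicates, and all these folds share the same 6 libraries, so the coefficients are descriptions. After removal of the trend on both properties the median log2 fold was 0.16 over the members and -0.01 over all tested genes, with 0.15 for basement membrane and 0.26 for fibrillar genes. Of the members, 1 (2.17%) then passed, against 2.19% of 16658 genes. What part the trend has in the folds of single members was not tested.

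**Figure D3:**
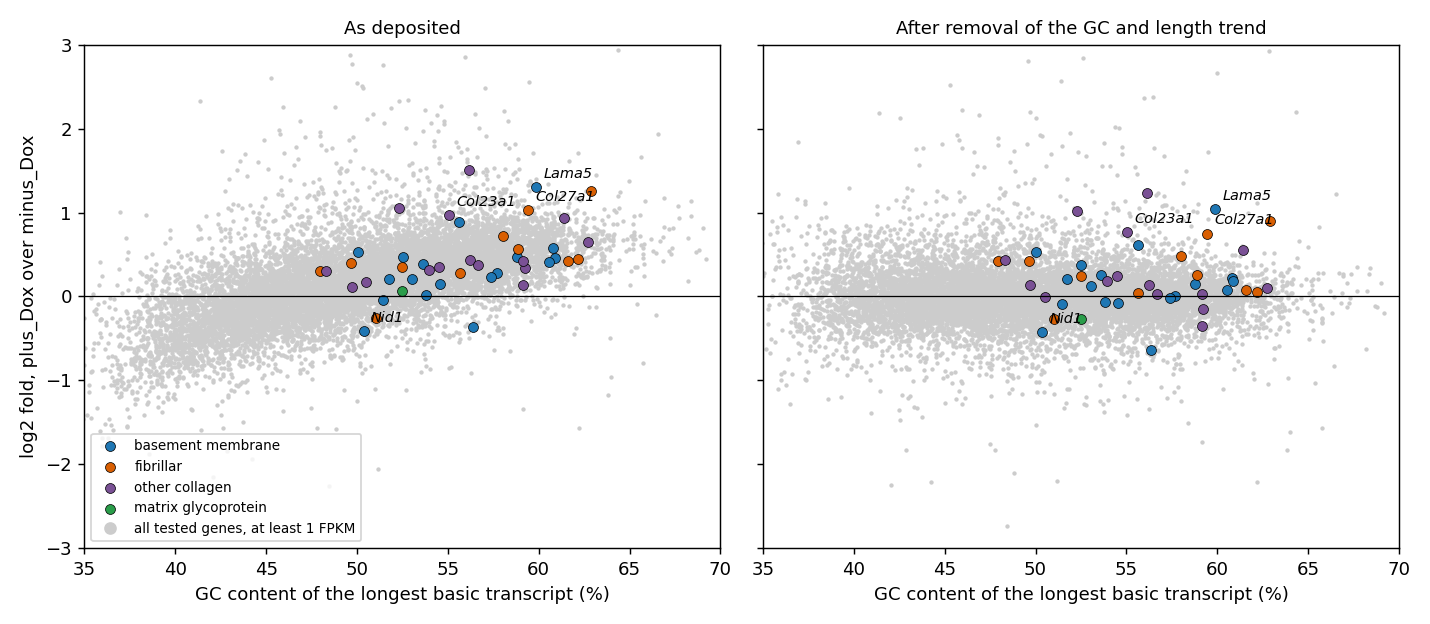
Log2 fold of plus_Dox over minus_Dox against the GC content of the longest transcript, as deposited (left) and after removal of the GC and length trend (right). Grey points are tested genes with at least 1 FPKM, coloured points are 45 tested members by class. The grey cloud slopes upward on the left and is level on the right, where Lama5, Col23a1 and Col27a1 remain above 0.

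In the collagen genes the repeat that codes for the helix is rich in G and C. Over the tested collagens its longest run held from 54.6% (Col4a6) to 66.9% (Col23a1) G or C. The median GC content of transcripts was 50.3% over all tested genes. What part of the transcripts' GC content the repeat makes up was not tested. A collagen helix repeats a unit of glycine and 2 further residues, and glycine codons begin with GG. In the coding sequences of GENCODE vM21 (GRCm38) the longest unbroken run of this repeat had 338 triplets in Col5a1, Col1a1 and Col11a2, 217 in Col27a1, 43 in Col23a1, 40 in Col4a1 and 66 in Col4a2. The first 54 bases of that run are shown for Col23a1 and for some fibrillar genes. The fibrillar genes are the 2 with the most and the 2 with the least G or C at the third base of codons. Capitals mark the glycine codon that opens each triplet, and any further glycine codon is in lower case.
Col27a1: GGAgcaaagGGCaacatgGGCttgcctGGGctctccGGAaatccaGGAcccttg
Col11a2: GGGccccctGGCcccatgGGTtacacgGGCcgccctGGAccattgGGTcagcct
Col3a1: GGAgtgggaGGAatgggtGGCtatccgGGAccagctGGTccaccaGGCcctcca
Col5a2: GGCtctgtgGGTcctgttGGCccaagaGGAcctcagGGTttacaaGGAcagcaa
Col23a1: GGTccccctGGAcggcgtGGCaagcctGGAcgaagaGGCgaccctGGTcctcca

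At the third base of codons, G or C took 52.2% in the Col27a1 run and 45.9% in Col11a2, against 23.5% in Col3a1 and 25.96% in Col5a2. The deposited log2 folds of the same genes in the authors' deposited table were 1.04 and 1.26, against 0.36 and 0.39, of which that of Col27a1 passed. Col11a2 had an SE of 0.86. The ends do not split cleanly, since Col5a3, at 45.7%, had a log2 fold of 0.43. The lowest fibrillar fold, -0.26 in Col24a1, came with a share of 32.7%. Over 32 tested collagens Spearman's coefficient between this share and the log2 fold was 0.53, and over the 11 fibrillar genes 0.69. The transcript-wide relation across all genes has the same sign, and the points share all libraries.

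**Figure D4:**
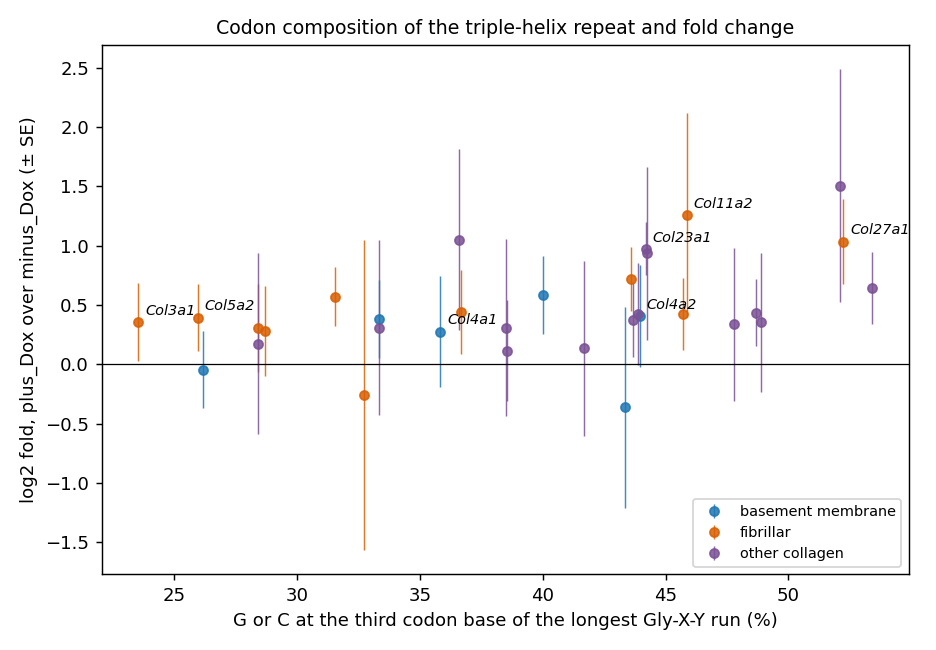
Log2 fold of plus_Dox over minus_Dox (bars, SE) of 32 tested collagens against the share of G or C at the third base of codons in the longest glycine repeat, coloured by class. Col3a1 and Col5a2 lie at the left with folds of 0.36 and 0.39, and Col27a1 lies near the right end at 1.04, with wide bars for most low genes.

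Promoters of the called genes were read for the Lef/Tcf core. RefSeq windows from 250 bases before to 50 bases after the start (GRCm38.p6) were found for 44 members, 5 of them with several windows. The windows of the 3 called genes are shown with GC boxes (GGGCGG, either strand) in capitals. They lie at chr2:180225810-180226109 on the minus strand for Lama5, chr4:63215162-63215461 on the plus strand for Col27a1 and chr11:51289670-51289969 on the plus strand for Col23a1.
Lama5: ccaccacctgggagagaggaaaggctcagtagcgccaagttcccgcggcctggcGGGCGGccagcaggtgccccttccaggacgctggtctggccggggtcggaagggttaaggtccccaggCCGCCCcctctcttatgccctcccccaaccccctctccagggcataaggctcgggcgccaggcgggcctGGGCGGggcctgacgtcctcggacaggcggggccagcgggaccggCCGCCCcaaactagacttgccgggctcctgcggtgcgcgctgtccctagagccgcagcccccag
Col27a1: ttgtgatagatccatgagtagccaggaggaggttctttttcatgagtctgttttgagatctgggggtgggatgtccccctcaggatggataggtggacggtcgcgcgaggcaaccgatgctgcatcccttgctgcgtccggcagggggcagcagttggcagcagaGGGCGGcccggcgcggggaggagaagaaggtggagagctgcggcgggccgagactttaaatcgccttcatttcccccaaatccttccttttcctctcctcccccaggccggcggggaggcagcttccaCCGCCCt
Col23a1: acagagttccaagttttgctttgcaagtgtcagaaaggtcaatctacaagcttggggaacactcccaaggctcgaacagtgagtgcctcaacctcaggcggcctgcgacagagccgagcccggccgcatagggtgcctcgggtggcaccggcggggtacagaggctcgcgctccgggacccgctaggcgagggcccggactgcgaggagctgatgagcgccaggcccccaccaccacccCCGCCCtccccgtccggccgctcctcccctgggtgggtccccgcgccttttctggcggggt

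None of these 3 windows, nor that of Col4a2, held CTTTGAT or CTTTGAA on either strand, the words searched for the Lef/Tcf core. No such word contains the GC box or CCAAT. Among members' windows 5 of 49 (10.2%) held such a word, against 8.65% of 32851 windows of all genes. The 5 were those of Col6a2, Col9a1, Col9a2, Col13a1 and Col15a1. Col9a1 was not tested, and none of the other 4 was called, against 12.2% called of all tested genes. With 4 tested genes these shares cannot be compared. GC boxes were in 30 members' windows (61.2%), against 35.7% of all windows, with 4 in Lama5, 2 in Col27a1 and 1 in Col23a1. CCAAT was in 15 members' windows (30.6%), against 37.4%. A word match is a description of the sequence and no evidence of binding.

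Genes that build, bind or cut this matrix gave 10 calls over 5 lists. The share called ran from 5.88% of interstitial matrix genes to 13.6% of matrix receptors, against 12.2% of all tested genes, so no list stood far above the background. Of enzymes and chaperones that modify and crosslink collagen, 2 of 27 rose and 1 fell. The fall was in Plod2, a lysyl hydroxylase that prepares crosslinks, at 14.9 FPKM in plus_Dox and 23.3 FPKM in minus_Dox in the authors' deposited table (log2 fold of -0.64 with SE 0.22, q = 0.0331). Pcolce, an enhancer of procollagen cleavage, rose in a row it shares with Fbxo24 (8.38 and 4.69 FPKM in plus_Dox and minus_Dox of the authors' deposited table, log2 fold of 0.84 with SE 0.28, q = 0.0302). The crosslinking gene Loxl4 rose below 0.2 FPKM. Neither the fall of Plod2 (-0.46, q = 0.488) nor the rise of Loxl4 (q = 0.136) passed after trend removal, where the joined row of Pcolce has no value. After subtraction of the median shift Pcolce did not pass (log2 fold 0.64, q = 0.152). Plod2 (log2 fold -0.84, q = 0.00308) and Loxl4 (log2 fold 1.33, q = 0.0173) still passed after that subtraction.

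Of 22 tested matrix receptors 2 rose and 1 fell. Itgb5, an integrin beta chain for vitronectin, rose to 37.1 FPKM in plus_Dox, against 20.7 FPKM in minus_Dox, in the authors' deposited table (log2 fold of 0.84 with SE 0.18, q = 0.000177). Itga5, the alpha chain of the fibronectin receptor, had 15.1 FPKM in plus_Dox and 10.9 FPKM in minus_Dox in the authors' deposited table (log2 fold of 0.47 with SE 0.16, q = 0.0369). The fall, in Itgb8, was below 1 FPKM. None of these 3 passed after trend removal. Among 23 proteases and inhibitors 2 rose and 0 fell by the authors' Cuffdiff test, with 3 higher (13.0%, against 17.2% of all tested genes) and 0 lower at an unadjusted p under 0.05. Mmp14, a membrane-bound collagenase, had 15.5 FPKM in plus_Dox and 10.7 FPKM in minus_Dox in the authors' deposited table (log2 fold of 0.54 with SE 0.17, q = 0.0208), and 0.21 in log2 after trend removal (q = 1.00). After subtraction of the median shift neither Itga5 (q = 0.377) nor Mmp14 (q = 0.249) passed. Itgb5 (log2 fold 0.64, q = 0.00782) and Itgb8 (log2 fold -1.32, q = 0.00816) still passed after that subtraction. Mmp9 rose below 1 FPKM and did not pass after subtraction of the median shift (q = 0.0524) or after trend removal (q = 0.232).

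The matrix calls outside the members with the smallest q-values were in Frem2 and Efemp1, although Mmp9 had a larger fold than either (4.57-fold). Frem2, a transmembrane protein of embryonic epithelial basement membranes, was at 4.81 FPKM in plus_Dox and 1.82 FPKM in minus_Dox in the authors' deposited table, a 2.65-fold rise (log2 fold of 1.41 with SE 0.22, q = 2.24e-08). It was the 1 rise among 14 tested basement membrane associated genes. Efemp1, a fibulin family gene, was the 1 rise among 17 interstitial matrix genes, at 1.30 FPKM in plus_Dox and 0.358 FPKM in minus_Dox in the authors' deposited table (3.64-fold, log2 fold of 1.87 with SE 0.36, q = 1.67e-05). Both still passed after trend removal, at log2 folds of 1.40 (q = 4.23e-08) and 1.81 (q = 7.85e-05). No tested gene of these 2 lists fell by the Cuffdiff test. At an unadjusted p under 0.05 each list had 2 higher (14.3% and 11.8%, against 17.2% of all tested genes) and 0 lower (against 6.14%). Vcan, an interstitial matrix gene at 3.81 FPKM in plus_Dox and 6.49 FPKM in minus_Dox, had a test marked as failed. Median log2 folds of the 5 lists ran from 0.21 to 0.33.

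**Figure D5:**
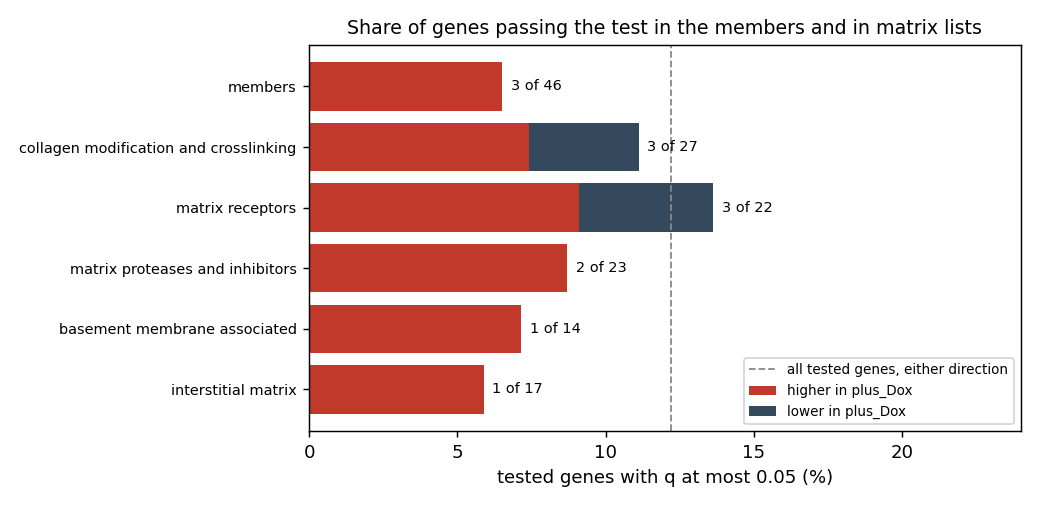
Share of tested genes with q at most 0.05 in the members and in the 5 matrix lists, split into higher (red) and lower (dark blue) in plus_Dox, with counts beside the bars. The dashed line is the 12.2% of all tested genes in either direction, which the matrix receptors alone exceed.

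Markers of cells that secrete basement membrane did not shift in 1 direction. Of 13 extraembryonic endoderm markers 12 were tested, and 2 rose, Amn and Sox17, of which Sox17 also marks definitive endoderm. That is 16.7%, against 12.2% of all tested genes. After subtraction of the median shift Amn still passed as higher and Sox17 did not (q = 0.244), and Pdgfra and Cubn passed as lower (log2 folds -0.71 and -0.61). After trend removal neither Amn (q = 1.00) nor Sox17 (q = 0.720) passed, Gata6 passed as lower (log2 fold -0.73, q = 0.0239), and the median log2 fold of the list was -0.21. The summed level of all 13 markers was 226 FPKM in plus_Dox and 223 FPKM in minus_Dox, and none was at 0. That sum includes Dab2, the highest of them, whose test is marked as failed. Dab2 stood at 61.2 FPKM in plus_Dox and 78.8 FPKM in minus_Dox. Over the 12 tested markers the median log2 fold was -0.03 as deposited. Of 9 markers of the fibroblast feeder layer, on which the stem cells had been grown, 7 were tested and none passed. The 9 summed to 20.4 FPKM in plus_Dox and 15.9 FPKM in minus_Dox. Most of that sum was Thy1, at 16.6 FPKM in plus_Dox and 11.9 FPKM in minus_Dox (q = 0.0550). The median log2 fold of the tested feeder markers was 0.48, against 0.20 over all tested genes. The 5 endothelial markers summed to 1.17 FPKM in plus_Dox and 1.21 FPKM in minus_Dox, with Emcn listed at 0. Of the 5 stem cell and epiblast markers 4 were tested. Nanog rose (109.7 FPKM in plus_Dox and 28.6 FPKM in minus_Dox) and Sox2 fell (30.9 FPKM in plus_Dox and 56.2 FPKM in minus_Dox) in the authors' deposited table. That is 50% of the tested markers, against 12.2% of all tested genes. Pou5f1, the highest of them, did not pass at 1510 FPKM in plus_Dox and 820 FPKM in minus_Dox (q = 0.0547). Fgf5 did not pass at 43.8 FPKM in plus_Dox and 54.1 FPKM in minus_Dox (q = 0.237). Dnmt3b had no valid test. The part of these cell types in the members' values was not tested.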

How the data were processed

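The submitters' processing notes name mm9, Cufflinks 2.0.2, Cuffdiff, TopHat2 2.0.8, Picard and Bowtie, without roles, and no annotation. The authors deposited 1 Cuffdiff table with an FPKM value per group, computed over its 3 libraries, and a log2 fold of plus_Dox over minus_Dox. The authors' test statistic is a score whose sign is opposite to the fold. The deposited p-value equals its two-sided normal tail (0 differences above 1e-05), and the q-value is its Benjamini-Hochberg value over 18114 tested rows. There are 0 columns of single libraries, so no model was fitted to libraries, and SE is the log2 fold over the statistic. Depth is unknown.

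For scaling, the median log2 fold of tested genes with at least 1 FPKM (0.20) was subtracted. The trend was a least squares fit of the log2 fold on cubic splines (6 knots) of GC content and log2 length, weighted by SE, from the longest basic transcript of each symbol in GENCODE vM21 (16658 genes, 92.0%, and all 46 tested members), with p-values adjusted again over all genes. It was tried on simulated data with a linear effect of GC content and length and with changes larger than any tested member's log2 fold. That simulation does not show how the removal acts on folds as small as those of the members. Python 3.11.15, scipy 1.17.1 and scikit-learn 1.9.0 were used. Members and lists were chosen with earlier results of these data known. Named genes were Lef1, Fn1, Sparc, called members, basement membrane and fibrillar members with at least 1 FPKM, the 3 highest other collagens without a call and, in each matrix list, up to 5 calls with at least 1 FPKM. Uncalled members under 1 FPKM, Loxl4, Itgb8, Mmp9, Amn, Sox17, Pdgfra, Cubn, Gata6, Sox2, Nanog and Emid2 were chosen outside this rule after their values were seen. So were Pou5f1, Fgf5, Dnmt3b and Vcan. Alternatives were q-value thresholds, fold and FPKM minima, scaling, trend, pseudocounts and class membership. For 1 member the values are included in counts and medians and are not reported here.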

Additional observations from a re-analysis of the deposited data

How the results depend on the processing

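No paired analysis was possible because the table holds 1 value per group, and for the same reason no replicate could be left out. The 3 calls among members became 1 at a q-value of 0.01, 7 at 0.1, 1 after trend removal and 1 at a minimum of 5 FPKM. The call kept at 5 FPKM was Lama5, and Col23a1 was lost there. At a minimum of 2-fold 2 calls stayed, Lama5 and Col27a1, and Col23a1 was lost. Basement membrane calls, 1 as deposited, became 0 at a q-value of 0.01, 4 at 0.1 and 0 after trend removal, and after median-ratio scaling the 1 call was the fall of Nid1 in place of the rise of Lama5. Fibrillar calls, also 1, became 0 at a q-value of 0.01, after scaling, after trend removal and at minima of 1 and 5 FPKM, and 2 at 0.1. The 10 calls in the matrix lists became 4 at a q-value of 0.01, 5 at a minimum of 2-fold, 6 after scaling, 2 after trend removal and 5 at a minimum of 5 FPKM. The share called of all tested genes also moved with the setting. It was 12.2% as deposited, 9.56% after scaling, 2.19% after trend removal and 16.5% at a minimum of 1 FPKM. For the other settings it is not given here, so those counts do not show whether members moved differently from all genes. Over the alternatives run, the median log2 fold ranged from 0.15 to 0.41 for basement membrane genes and from 0.23 to 0.44 for fibrillar genes, of which none had 5 FPKM. Of the tested members' folds, 6 changed sign after scaling and 7 after trend removal, and no called gene named here did. Causes of these changes were not tested. FPKM values of pooled groups limit precision to that of the authors' test.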
